A study of Caenorhabditis elegans with 78 samples.

Results

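Regions with H3K36me3 but no H3K36me2 peak at 25°C, called H3K36me3-only regions, were studied in whole young adult *C. elegans* of the wild-type strain N2 and of *jmjd-5(zr1234)*, a mutant with substitutions in conserved residues of the JmjC domain that makes JMJD-5 a candidate histone demethylase. Chromatin was immunoprecipitated with antibodies against H3K36me3 and H3K36me2 from animals kept at 25°C for 3 generations (F3), and against H3K36me2 from animals grown at 20°C, with 2 replicates per group. H3K27me3 was profiled at both temperatures, so that 20 lists of peaks were available. Whole animals mix germline and soma, and a peak present in few cells cannot be told apart from a weak peak in all of them.

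The regions were chosen by the H3K36me3 and H3K36me2 peaks at 25°C, separately in each genotype. Peaks of both H3K36me3 replicates that shared at least 1 bp were merged, merged regions with a peak of both replicates were kept, and a region was an H3K36me3-only region if it overlapped no H3K36me2 peak of either replicate. In N2, 6819 of 12105 reproducible H3K36me3 regions (56.3%) were H3K36me3-only, and 5286 held an H3K36me2 peak as well. In *jmjd-5(zr1234)*, 6827 of 12225 (55.8%) were H3K36me3-only, and 5398 were double-marked. These counts follow from the choice and were not tested. "Only" refers to the peak lists, which start at a −log10 p of 10, and does not mean that H3K36me2 was absent. The study called peaks at a less strict threshold, so that weaker H3K36me2 peaks are not in these lists.

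Histone H3 methylated at lysine 36 marks the bodies of transcribed genes. In *C. elegans*, MET-1 adds the trimethyl form in the course of transcription, while MES-4 maintains H3K36 methylation in the germline and can do so without ongoing transcription. H3K27me3, placed by the Polycomb complex around the methyltransferase MES-2, marks repressed genes and opposes H3K36 methylation. Autosomes of this species have centres rich in conserved, broadly expressed genes and repeat-rich arms, and the X chromosome carries few germline-expressed genes.

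The peak lists held 13136 to 13487 peaks per H3K36me3 library, 10643 to 11074 per H3K36me2 library at 25°C, 12049 to 12961 per H3K36me2 library at 20°C and 17674 to 20203 per H3K27me3 library. The replicates were not copies of each other. Of the merged H3K36me3 regions, 86.3% in N2 and 89.1% in *jmjd-5(zr1234)* had a peak in both replicates, and of the merged H3K36me2 regions at 25°C, 79.0% and 78.4% did. Because the lists carry neither a spike-in scaling nor read depth, they record where a mark passed the threshold and not how much of it was present. All positions refer to ce10, and no gene annotation or sequence of that build was used.

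The chromosome with by far the largest share of H3K36me3-only regions was X. In N2, 778 of the 878 H3K36me3 regions on X (88.6%, 95% Wilson interval 86.3% to 90.5%) had no H3K36me2 peak, against 53.8% on the autosomes. In *jmjd-5(zr1234)*, the share on X was 775 of 943 regions (82.2%, 79.6% to 84.5%), against 53.6% on the autosomes. The intervals cover counting error only, and neighbouring regions are not independent. Between the autosomes the shares ranged from 49.7% on I to 59.6% on V in N2, and from 48.5% on I to 59.6% on V in *jmjd-5(zr1234)*.

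Counted by peaks of single libraries, the share of H3K36me3 peaks on X that overlapped no H3K36me2 peak was 89.2% ± 0.656 (SD, n = 2) in N2 and 82.7% ± 0.132 in *jmjd-5(zr1234)*. On chromosome I, the autosome with the lowest share, the values were 50.8% ± 1.79 and 49.2% ± 0.623. On V, the highest autosome, they were 60.5% ± 0.680 and 59.9% ± 0.766. X stood apart from each autosome in all 4 libraries, and the genotypes were closer to each other on every autosome than on X.

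**Figure D1:**
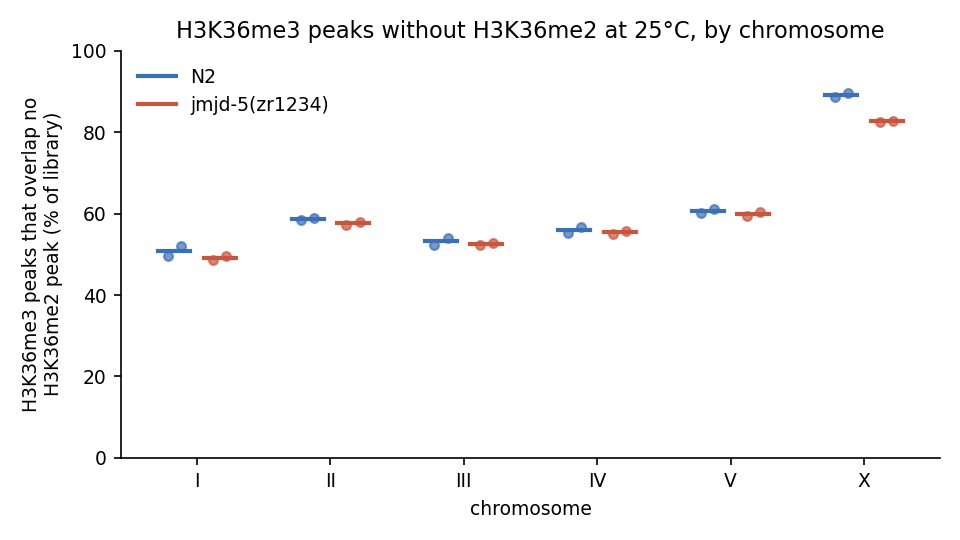
Percent of the H3K36me3 peaks of a library that overlap no H3K36me2 peak of the same genotype at 25°C (y axis) on each chromosome (x axis). Points are the 2 libraries of a genotype and lines their mean. X lies at 89.2% in N2 and 82.7% in *jmjd-5(zr1234)*, above every autosome.

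Over the 4 H3K36me3 libraries, 11.5% of the peaks in H3K36me3-only regions lay on X, compared with 2.55% of the peaks in double-marked regions. The difference of 8.90 percentage points is a description, since its direction follows from the choice. The H3K36me2 lists that chose the regions covered 0.538% to 0.778% of X, against 5.57% to 5.69% of all chromosomes. An exact sign-flip test was made on the difference (p = 0.125, adjusted p = 0.175). It decides nothing, because the direction was fixed by the choice and 4 libraries allow no smaller p. In N2 the shares were 11.5% ± 0.0367 and 1.92% ± 0.00428 (SD, n = 2). In *jmjd-5(zr1234)* they were 11.4% ± 0.0731 and 3.18% ± 0.0255. The genotypes thus had nearly the same part of their H3K36me3-only peaks on X and differed in the double-marked peaks there.

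Along the autosomes, H3K36me3-only regions were concentrated in the chromosome centres. Each chromosome was divided, from its first to its last peak, into a centre with the middle 50% of its length and 2 arms with the outer 25% on each side. These are fixed shares of length and not measured arm borders. In N2, 4574 of 5800 H3K36me3 regions in the centres (78.9%) were H3K36me3-only, against 1467 of 5427 (27.03%) in the arms. In *jmjd-5(zr1234)*, the shares were 4574 of 5896 (77.6%) and 1478 of 5386 (27.4%). Most H3K36me3 regions of the centres therefore had no H3K36me2 peak, and most regions of the arms had one.

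The 5 autosomes showed this pattern one by one. In N2, the share in the centre was lowest on I (74.3%) and highest on V (84.2%), while the share in the arms was lowest on I (23.5%) and highest on IV (31.3%). In *jmjd-5(zr1234)*, the centres ranged from 72.5% on I to 82.9% on V and the arms from 23.0% on I to 33.3% on IV. The 2 arms of one chromosome were not alike. On IV, 25.7% of the N2 regions in the left arm (lower coordinates) and 43.8% of those in the right arm were H3K36me3-only, and on V these values were 36.5% and 22.2%. The mutant had the same order on both chromosomes, with 27.7% and 45.7% on IV and 36.9% and 23.6% on V.

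In 10 equal segments of chromosome length, pooled over the autosomes, the N2 share was lowest in the second segment (16.5%), rose to 53.4% in the third and was highest in the sixth (84.8%), before it fell to 53.8% in the eighth and 22.0% in the ninth. The outermost segments, with 26.4% and 28.9%, were above their inner neighbours. On X, the first segment had the lowest share, with 60.3% in N2 and 53.4% in *jmjd-5(zr1234)*, and the N2 share lay between 89.6% and 97.8% from the second to the ninth segment.

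**Figure D2:**
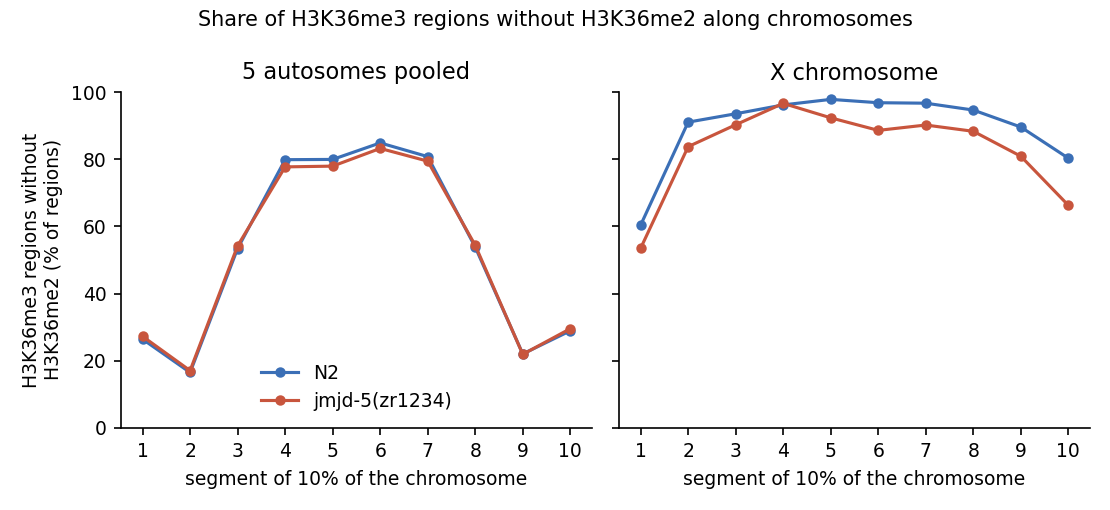
Percent of reproducible H3K36me3 regions that are H3K36me3-only (y axis) in each of 10 equal segments of the chromosome (x axis), pooled over the 5 autosomes (left) and on X (right), 1 point per genotype and segment. The autosomal share rises from 16.5% in the second segment to 84.8% in the sixth in N2, while on X it is lowest in the first segment.

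Of the autosomal peaks in H3K36me3-only regions, 24.1% lay in the arms, compared with 75.3% of the peaks in double-marked regions. The difference was −51.3 percentage points. It was −37.6 points with arms of 33.3% of the length on each side. The direction follows from the choice of the regions. The H3K36me2 lists that were used to choose them had 70.2% to 71.5% of their autosomal peaks in the arms. The H3K36me3 lists had 47.1% to 47.8% there. An exact sign-flip test was made on the difference (p = 0.125, adjusted p = 0.175). It decides nothing, because the direction was fixed by the choice and 4 libraries allow no smaller p.

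H3K36me3-only regions were slightly narrower than double-marked regions and slightly higher in enrichment. In N2 their median width was 452 bp in the arms and 479 bp in the centres, compared with 511 and 503.5 bp for double-marked regions. Over all chromosomes it was 479 bp in N2 and 450 bp in *jmjd-5(zr1234)*, and they covered 4.47 Mb and 4.21 Mb. In N2 their median fold enrichment of H3K36me3 was 4.61 in replicate 1 and 4.53 in replicate 2, compared with 4.42 and 4.10 in double-marked regions. In *jmjd-5(zr1234)* the medians were 4.62 and 4.61, compared with 4.35 and 4.24. The middle 50% of the H3K36me3-only regions, from 3.79 to 5.50 in N2 replicate 1, overlapped widely with that of the double-marked regions, from 3.48 to 5.47. These values come from the lists that chose the regions and are a description.

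The share of H3K36me3-only regions was lowest among the weakest H3K36me3 regions and highest among the narrowest. In N2 it was 50.7% in the weakest 25% of regions by −log10 p and between 57.3% and 59.1% in the rest, taken 25% at a time. By width, the narrowest 25%, of 204 to 329 bp, had the highest share (64.2%) and the others between 52.4% and 56.2%. *jmjd-5(zr1234)* regions had 50.1% among the weakest 25% and 64.4% among the narrowest.

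On X the H3K36me3-only regions were weaker than on the autosomes. In N2 their median fold enrichment was 3.73 and 3.50 in the 2 replicates on X and 4.73 and 4.66 on the autosomes. In *jmjd-5(zr1234)* it was 3.84 and 3.75 on X and 4.75 and 4.73 on the autosomes. Within the autosomes of N2, H3K36me3-only regions of the arms and of the centres had nearly equal medians. These were 4.74 and 4.73 in replicate 1 and 4.63 and 4.67 in replicate 2. Double-marked regions of these places were at 4.55 and 4.08 in N2 replicate 1. In *jmjd-5(zr1234)* the arms were slightly higher, with 4.88 against 4.71 in replicate 1 and 4.80 against 4.71 in replicate 2.

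The regions with the highest −log10 p on a chromosome, taking the lower of the 2 replicates, ranged from 388 to 6904 bp in width in N2 and from 389 to 3069 bp in *jmjd-5(zr1234)*. On II in N2 it was chrII:3074196-3074583, with a fold enrichment of 10.3 and 9.33 in the replicates and an H3K36me2 peak 1044 bp away. This region held an H3K36me2 peak in *jmjd-5(zr1234)*, and in 1 of the 2 N2 libraries at 20°C. On III it was chrIII:13648385-13649193 (6.51 and 7.53), and on V chrV:4372093-4373673 (6.92 and 6.33), both H3K36me3-only in the mutant and without H3K36me2 at 20°C. The strongest region of X in N2, chrX:14130847-14132150 (6.64 and 7.20), lay 7017 bp from H3K36me2 and was without it in both N2 libraries at 20°C. The strongest on IV, chrIV:3040434-3047337, was also among the widest, with 6904 bp and a fold enrichment of 8.18 and 6.66. It held an H3K36me2 peak in 1 of the 2 N2 libraries at 20°C. Its counterpart on I was 842 bp wide (7.55 and 6.59) and held an H3K36me2 peak in both N2 libraries at 20°C.

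In *jmjd-5(zr1234)* the strongest regions on the other chromosomes had different positions from those in N2. They were chrII:14070471-14070891 (fold enrichment 8.50 and 8.46), chrIII:10419038-10419426 (9.16 and 8.95), chrIV:6906683-6909751 (6.57 and 6.48), chrV:4618739-4619739 (6.99 and 6.75) and chrX:1440571-1443358 (5.57 and 5.90). Each of them was H3K36me3-only in N2 too, apart from the region on II, which held H3K36me2 there. At 20°C, the regions on II and V held an H3K36me2 peak in both mutant libraries and the region on III in 1 of them. The strongest region on I was 715 bp wide (10.1 and 10.1).

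The widest H3K36me3-only region of N2 measured 17244 bp and lay on I, with a fold enrichment of 4.16 and 3.48. It held an H3K36me2 peak in both N2 libraries at 20°C and in *jmjd-5(zr1234)* at 25°C, and an H3K27me3 peak in 2 of the 4 N2 libraries. The widest regions of *jmjd-5(zr1234)* were 6687 bp on I, 6446 bp at chrIV:7134963-7141408 and 6262 bp at chrII:13084192-13090453, and these were H3K36me3-only in N2 as well. At 20°C, the one on I held an H3K36me2 peak in both mutant libraries, the one on II in 1 and the one on IV in neither.

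The gap to the nearest H3K36me2 peak differed between the autosomes and X. The median distance on the autosomes was 2132 bp in N2 and 2184.5 bp in *jmjd-5(zr1234)*. On X it was 20381 bp in N2 and 11076 bp in *jmjd-5(zr1234)*. At 20000 bp or more were 50.1% of the X regions in N2 and 39.7% in the mutant, compared with 9.02% and 8.72% of the autosomal regions. The largest gap was 729802 bp on X in N2 and 340563 bp on X in *jmjd-5(zr1234)*, while no autosomal gap was over 158336 bp. On the autosomes the median gap was 1067 bp in the arms and 2731.5 bp in the centres in N2, and 1027.5 and 2785 bp in the mutant. These distances use the lists that chose the regions and were not tested.

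**Figure D3:**
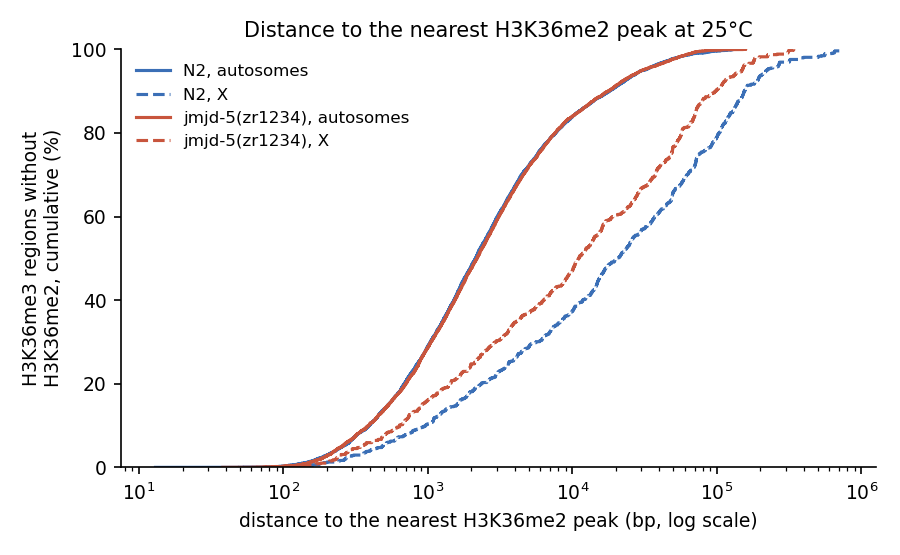
Cumulative percent of H3K36me3-only regions (y axis) by distance to the nearest H3K36me2 peak of the same genotype at 25°C (x axis, bp, log scale), for autosomes (solid) and X (dashed). The autosomal curves of both genotypes coincide, with medians of 2132 and 2184.5 bp, and the X curves lie to the right, with medians of 20381 bp in N2 and 11076 bp in *jmjd-5(zr1234)*.

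Few regions were close to the limit of the choice in distance. In N2, 3 H3K36me3-only regions lay less than 50 bp from an H3K36me2 peak, at 13 bp (chrIII:9819420-9819945), 26 bp (chrII:5690546-5691046) and 49 bp (chrIII:13433108-13433738). In *jmjd-5(zr1234)* the nearest was at 38 bp (chrIII:11373955-11374925). On the other side, the smallest overlaps of double-marked regions were 37 bp in N2 and 6 bp in *jmjd-5(zr1234)*. A double-marked region was covered by H3K36me2 peaks over a median of 90.1% of its length in N2 and 91.0% in the mutant, and 19 and 13 such regions were covered over less than 10%. Many more were close to it in peak strength. With H3K36me2 peaks counted only from a −log10 p of 20, the number of H3K36me3-only regions was 8392 in place of 6819 in N2 and 8516 in place of 6827 in *jmjd-5(zr1234)*.

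H3K36me3-only regions followed each other along the chromosome. In N2, the next H3K36me3 region after an H3K36me3-only region was of the same kind in 77.2% of cases, and after a double-marked region it was H3K36me3-only in 29.5%. The values in *jmjd-5(zr1234)* were 76.0% and 30.4%. Of all H3K36me3 regions, 56.3% in N2 and 55.8% in the mutant were H3K36me3-only. On X the next region after an H3K36me3-only region was of the same kind in 92.4% of cases in N2 and 85.9% in *jmjd-5(zr1234)*. These values were little above the shares of all H3K36me3 regions on X, 88.6% and 82.2%. After a double-marked region on X the next was H3K36me3-only in 60.0% and 65.3%. Regions standing between 2 double-marked neighbours were 8.45% of the N2 and 8.69% of the mutant regions.

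Runs of 10 or more consecutive H3K36me3-only regions held 44.6% of them in N2 and 40.4% in *jmjd-5(zr1234)*. The longest run in N2 was on X, with 121 regions over 2877.8 kb (chrX:5680876-8558679). The next were 55 regions at chrX:10374433-11232891 and 54 regions at chrV:8461152-9325377. In the mutant the longest run was on V, with 53 regions at chrV:12471558-12972169, followed by 40 regions at chrX:11949142-13374092 and 39 regions at chrII:8655660-8848133. The last of these overlapped the N2 run of 37 regions at chrII:8654498-8848196. On X, runs of at least 10 held 83.8% of the H3K36me3-only regions in N2 and 56.4% in *jmjd-5(zr1234)*. On the autosomes they held 39.6% and 38.3%. Runs are longer where a larger share of regions is H3K36me3-only, and that share was 88.6% and 82.2% on X. Its part in the run lengths was not tested.

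The H3K36me3-only regions were largely free of H3K36me2 peaks in libraries that had not been used to choose them. These were the 4 H3K36me2 libraries at 20°C, read with the regions of their own genotype, and the 4 at 25°C, read with the regions of the other genotype. An H3K36me2 peak was present in 8.68% of the H3K36me3-only regions and in 87.2% of the double-marked regions, as means over the 8 libraries. The difference of −78.6 percentage points was negative in 8 of 8 libraries (exact sign-flip test, two-sided, p = 0.00781, the smallest that 8 libraries allow, 0.0547 after Benjamini-Hochberg adjustment over the 7 tests made). The 8 values rest on 2 sets of regions. The same mark defined the 2 kinds of regions, and the 4 lists at 25°C chose the largely shared regions of the other genotype. The direction therefore follows from the choice, and the p-value says only that the split recurred in these lists. The difference was −78.7 points on the autosomes alone and −59.0 points on X alone.

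At 20°C, 13.1% and 13.6% of the N2 regions held an H3K36me2 peak in the N2 replicates (95% Wilson intervals 12.3% to 13.9% and 12.8% to 14.5%). In the *jmjd-5(zr1234)* replicates at 20°C, 8.03% and 12.5% of the mutant regions did (7.41% to 8.70% and 11.8% to 13.3%). With the genotypes exchanged at 25°C, the N2 regions held an H3K36me2 peak of the mutant in 6.19% and 6.73% of cases, and the mutant regions held one of N2 in 4.13% and 5.05%. Double-marked regions were between 79.7% and 93.1% in all these libraries, so that the 2 kinds of regions did not overlap in any comparison.

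**Figure D4:**
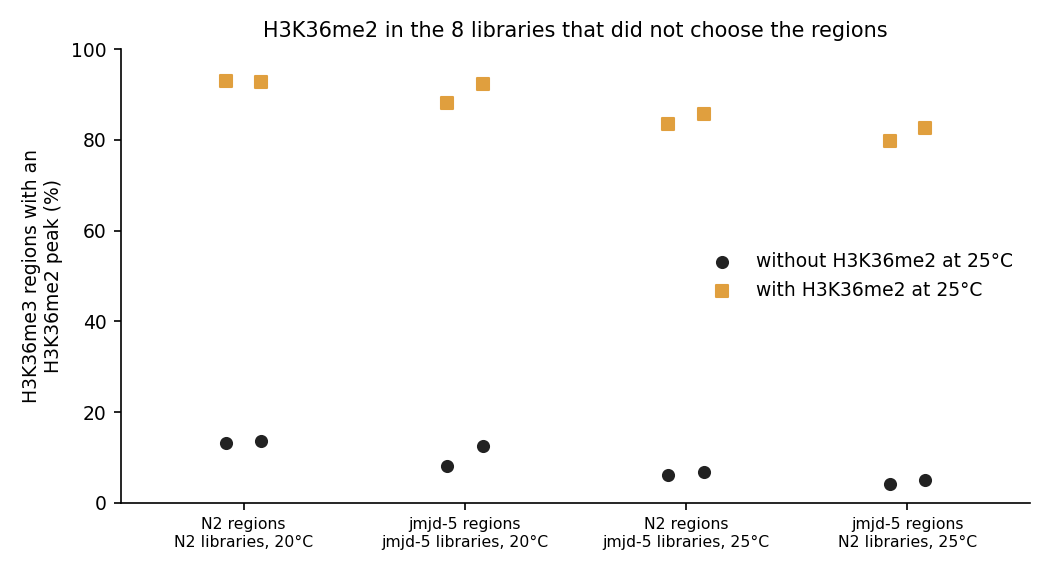
Percent of H3K36me3 regions with an H3K36me2 peak (y axis) in the 8 H3K36me2 libraries that did not choose the regions, grouped by the genotype of regions and libraries and by temperature (x axis). Circles are H3K36me3-only regions, from 4.13% to 13.6%, and squares double-marked regions, from 79.7% to 93.1%.

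More regions were marked at 20°C than with the other genotype at 25°C, and the lists at 20°C were longer as well. The part of list length in this was not tested. With only the 10000 strongest peaks of each H3K36me2 list kept, the difference between the kinds of regions was −77.8 points, a value that does not compare the temperatures. Over both N2 replicates, 603 of the 6819 N2 regions (8.84%) held an H3K36me2 peak in both libraries at 20°C, 617 in 1 of them and 5599 in neither. In *jmjd-5(zr1234)*, 401 of 6827 regions (5.87%) held one in both, 602 in 1 and 5824 in neither.

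H3K36me2 peaks that did fall in H3K36me3-only regions were weak for their library. In N2 replicate 1 at 20°C there were 947 such peaks, with a median −log10 p of 15.6, compared with 35.0 for the peaks in double-marked regions and 30.8 for those in no H3K36me3 region. Their median rank in the library was percentile 13.9. Over all 8 libraries this percentile lay between 12.5 and 15.1, and that of the peaks in double-marked regions between 50.9 and 57.3. The direction follows from the choice, because regions with an H3K36me2 peak in the lists that chose them were left out. These ranks are a description and were not tested.

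Where such peaks appeared depended on place and distance. In the autosome arms, 29.4% and 30.7% of the N2 regions held an H3K36me2 peak at 20°C, compared with 9.49% and 9.86% in the centres. In *jmjd-5(zr1234)*, the values were 19.4% and 27.7% in the arms and 5.07% and 8.48% in the centres. Of the N2 regions less than 1000 bp from an H3K36me2 peak at 25°C, 23.5% and 25.0% held one at 20°C, and of those at 20000 bp or more, 2.89% and 2.89% did. Place and distance are related to each other, and their parts were not separated.

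H3K36me3-only regions on X were less often marked than the autosomal ones at 20°C. An H3K36me2 peak was present in 3.73% and 3.47% of the N2 regions on X in the N2 libraries and in 3.87% and 7.61% of the mutant regions in the *jmjd-5(zr1234)* libraries. On the autosomes these shares were 14.3% and 14.9%, and 8.56% and 13.2%. At 25°C, mutant libraries had a peak in 6.56% and 6.43% of the N2 regions on X, close to their 6.19% and 6.73% of all N2 regions. N2 libraries had one in 0.903% and 1.16% of the mutant regions on X, where 7 and 9 of 775 were marked.

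Most H3K36me3-only regions of one genotype were H3K36me3-only in the other. Of the 6819 N2 regions, 5748 (84.3%) overlapped an H3K36me3-only region of *jmjd-5(zr1234)*, 661 (9.69%) a double-marked region, 295 (4.33%) an H3K36me3 peak of 1 replicate alone and 115 (1.69%) no H3K36me3 peak. Of the 6827 mutant regions, 5941 (87.0%), 539 (7.90%), 218 (3.19%) and 129 (1.89%) did so in N2. Double-marked regions kept their kind at similar shares, with 4405 of 5286 N2 regions (83.3%) and 4460 of 5398 mutant regions (82.6%) double-marked in the other genotype. These counts use the lists that chose the regions.

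On X the exchange between the kinds was uneven. Of the 778 N2 regions on X, 80 (10.3%) were double-marked in *jmjd-5(zr1234)*. Of the 775 mutant regions on X, 19 (2.45%) were double-marked in N2. Seen from the other side, 76 of the 168 double-marked regions of the mutant on X (45.2%) were H3K36me3-only in N2, compared with 562 of 5230 (10.7%) on the autosomes. The reverse held for 13 of the 100 double-marked N2 regions on X (13.0%) and 471 of 5186 on the autosomes (9.08%). The difference between the genotypes on X was not tested with these libraries.

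An H3K36me3 peak was found again in 96.3% of the H3K36me3-only regions and 95.4% of the double-marked regions in the libraries of the other genotype. The difference of 0.932 percentage points was positive in 3 of 4 libraries and −0.275 without replicate 1 (exact sign-flip test, p = 0.375, adjusted p = 0.375). With 4 libraries no p under 0.125 is possible, so that the test says nothing on whether the kinds were alike.

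Between the genotypes, the share of H3K36me3-only regions with an H3K36me2 peak at 20°C was 13.4% ± 0.363 (SD, n = 2) in N2 and 10.3% ± 3.19 in *jmjd-5(zr1234)*, a difference of −3.08 percentage points (exact permutation test, p = 0.333, adjusted p = 0.375). Both N2 libraries were above both mutant libraries, and 2 libraries against 2 allow no smaller p, so that the test cannot tell whether the genotypes differed. Replicate 1 of the mutant, at 8.03%, had the shortest of the 4 lists at 20°C. With only the 10000 strongest peaks of each H3K36me2 list kept, the difference between the genotypes was −1.21 points. In the X regions that were H3K36me3-only in both genotypes the order was the opposite. There, 1.53% and 1.83% of 655 N2 regions held an H3K36me2 peak in the N2 libraries, and 2.67% and 5.93% of the 674 corresponding mutant regions in the *jmjd-5(zr1234)* libraries. That difference of 2.62 points, from a restriction chosen after the data were seen, also had the smallest possible p of 0.333 in the exact permutation test.

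H3K27me3 was rare in H3K36me3-only regions. Over the 8 H3K27me3 libraries, each read with the regions of its own genotype, 1.54% of the H3K36me3-only and 1.95% of the double-marked regions held an H3K27me3 peak. The difference of −0.409 percentage points was negative in 6 of 8 libraries (exact sign-flip test, p = 0.0703, adjusted p = 0.175). It depended on how it was measured. By covered length in place of regions it was −0.739 points, and on X −1.15 points. On X, between 1 of 100 and 6 of 168 double-marked regions were marked in a library. The difference was −0.0598 points with a −log10 p of at least 20 in all lists. With H3K36me3 peaks of either replicate it was −0.0655 points, and with an overlap of at least 50% of the region −0.186 points.

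In N2, the share of H3K36me3-only regions with an H3K27me3 peak was 1.76% ± 0.207 (SD, n = 2) at 20°C and 1.05% ± 0.0726 at 25°C. The mutant had 1.96% ± 0.0725 at 20°C and 1.41% ± 0.145 at 25°C. Single libraries ranged from 68 of 6819 regions (0.997%, 95% Wilson interval 0.787% to 1.26%) in N2 replicate 1 at 25°C to 137 of 6827 (2.01%, 1.70% to 2.37%) in mutant replicate 2 at 20°C. The H3K27me3 lists held 17674 to 19549 peaks at 25°C and 19336 to 20203 at 20°C.

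This low overall difference joined opposite values in different places, a split that was chosen after the data were seen. In the autosome arms, H3K36me3-only regions held H3K27me3 more often than double-marked regions in 8 of 8 libraries, by 2.06 percentage points on average. In the centres they held it less often in 8 of 8 libraries, by −1.05 points on average. Each has an unadjusted exact sign-flip p of 0.00781, the smallest that 8 libraries allow, and the places were not tested against each other. The 8 values rest on 2 largely shared sets of regions, and many marked regions recurred between libraries. Of the 78 N2 regions in the arms with H3K27me3 in any N2 library, 37 held it in all 4.

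In N2 replicate 1 at 20°C, 74 of 1467 H3K36me3-only regions in the arms (5.04%) held an H3K27me3 peak, and 118 of 3960 double-marked regions (2.98%). In the centres these were 41 of 4574 (0.896%) and 37 of 1226 (3.02%). At 25°C in mutant replicate 2 the values were 56 of 1478 (3.79%) and 55 of 3908 (1.41%) in the arms, and 34 of 4574 (0.743%) and 16 of 1322 (1.21%) in the centres. Across libraries the ranges of the 2 kinds of regions overlapped, with 2.73% to 5.14% against 1.19% to 2.98% in the arms and 0.437% to 0.984% against 0.979% to 3.02% in the centres. The order within a library was the same in each of the 8, and the numbers of marked regions behind these shares were small.

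**Figure D5:**
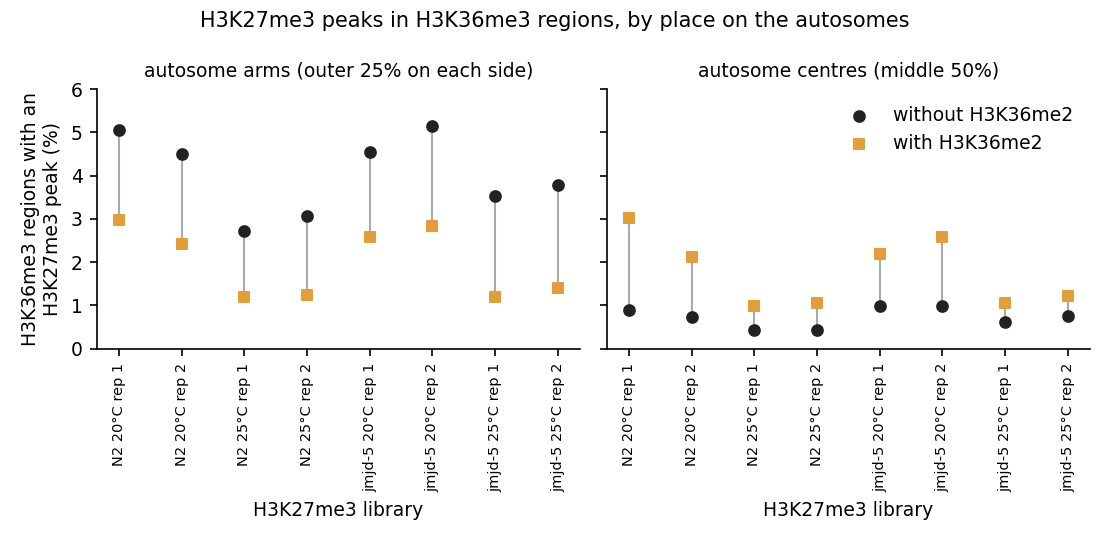
Percent of H3K36me3 regions with an H3K27me3 peak (y axis) in each of the 8 H3K27me3 libraries (x axis), in the arms (left) and the centres (right) of the autosomes. Circles are H3K36me3-only and squares double-marked regions, joined by a line within a library. The circle is above the square in 8 of 8 libraries on the left, by 2.06 points on average, and below it in 8 of 8 on the right.

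A small group of H3K36me3-only regions held H3K27me3 in every library of its genotype. In N2 there were 56 such regions of 6819 (0.821%), with 37 in the arms and 13 in the centres of the autosomes and 6 on X. In *jmjd-5(zr1234)* there were 77 of 6827 (1.13%), with 45, 24 and 8 in these places. Such regions were about as frequent among the double-marked regions, with 51 in N2 (0.965%) and 54 in *jmjd-5(zr1234)* (1.00%), of which 41 lay in the arms in each genotype. Within the arms, the share was 2.52% of the H3K36me3-only and 1.04% of the double-marked regions in N2. In *jmjd-5(zr1234)* these shares were 3.04% and 1.05%.

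By distance, H3K27me3 was least frequent in H3K36me3-only regions near H3K36me2. In N2 replicate 1 at 20°C, 0.982% of the regions less than 1000 bp from an H3K36me2 peak held an H3K27me3 peak, 1.45% of those at 1000 to 5000 bp, 3.24% at 5000 to 20000 bp and 3.21% at 20000 bp or more. In mutant replicate 2 at 25°C the shares were 0.484%, 0.970%, 3.05% and 3.11%. The share was higher at 5000 to 20000 bp than below 1000 bp in each of the 8 libraries, opposite in direction to that of H3K36me2 at 20°C.

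Between the genotypes, the share of H3K36me3-only regions with an H3K27me3 peak was 1.68% in *jmjd-5(zr1234)* and 1.40% in N2, as means over both temperatures. The difference was 0.277 percentage points (exact permutation within temperatures, p = 0.111, adjusted p = 0.175), in a design that allows no p under 0.0556. Restricted to regions that were H3K36me3-only in both genotypes it was −0.143 points. The same test gave an unadjusted p of 0.0556 there, the smallest that the design allows (exact permutation within temperatures). The direction of the difference thus depended on the set of regions.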

How the data were processed

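The authors aligned ChIP reads with Bowtie to ce10, discarded reads with several matches, removed duplicates and ran MACS2 on every library alone. Each deposited list holds for every peak a fold enrichment ratio and a −log10 p, and starts at a −log10 p of 10, stricter than the threshold stated for the peak calling. Read depth is unknown. The RNA tables were not used, since they hold no positions.

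Regions were merged and overlapped in Python 3.11.15 with NumPy 2.4.6 (at least 1 bp shared). Shares were compared over libraries by exact sign-flip and permutation tests, two-sided, with Benjamini-Hochberg adjustment over 7 tests, and intervals are Wilson intervals from SciPy 1.17.1. That replicates were separate cultures is not stated, so p-values measure the spread between these samples. The regions, tests and place limits were chosen with earlier results of these data known. Regions named are the strongest per chromosome, the 3 widest, the 3 longest runs and those nearest the limit of the choice. The 7 procedures were tested on 100 simulated data sets and returned the known answers in each.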

Additional observations from a re-analysis of the deposited data

Results flagged for a closer look

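At 25°C, the difference in H3K27me3 between H3K36me3-only and double-marked regions had opposite signs in the genotypes. It was −0.124 percentage points in N2, negative in both libraries, and 0.137 points in *jmjd-5(zr1234)*, positive in both. The sign in *jmjd-5(zr1234)* also changed with temperature, from −0.703 points at 20°C, negative in both libraries, to 0.137 points at 25°C. Neither difference between groups was tested. In the mutant at 25°C, 89 and 103 of 6827 H3K36me3-only regions and 63 and 74 of 5398 double-marked regions were marked. By covered length the mutant differences at 25°C were negative as well, at −0.0587 and −0.121 points. They were −0.392 and −0.417 points in N2 at 25°C and −1.32 and −1.44 in the mutant at 20°C. Counted by regions, the libraries of a group lay close together at 25°C. They were at −0.111 and −0.138 points in N2 and 0.137 and 0.138 points in *jmjd-5(zr1234)*, but they read the same regions. By place, the genotypes had the same signs at 25°C. In the arms the differences were 1.54 and 1.83 points in N2 and 2.32 and 2.38 in the mutant. In the centres they were −0.542 and −0.623 points in N2 and −0.447 and −0.467 in the mutant.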

How the results depend on the processing

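The number of H3K36me3-only regions stayed within 1.5 times under stricter thresholds, peaks of either replicate, a 50% overlap, single replicates and the 10000 strongest H3K36me2 peaks (5981 to 8392 in N2 and 6097 to 8516 in *jmjd-5(zr1234)*). Of the 56 alternatives, 44 kept the direction and side of the threshold or stayed within 1.5 times, 7 reversed, 3 newly passed an unadjusted 0.05 and 2 no longer did. The difference in H3K36me2 was −79.7 and −79.0 points without replicate 1 and replicate 2, where 4 libraries allow no exact p under 0.125. The difference in H3K27me3 passed an unadjusted 0.05 by covered length (−0.739), on X (−1.15) and in the autosome centres (−1.05), and reversed in the arms (2.06). It was smaller from a −log10 p of 20 (−0.0598), with H3K36me3 peaks of either replicate (−0.0655) and with a 50% overlap (−0.186). The cause was not tested. H3K36me3 in the other genotype reversed in the arms (−0.0382), and ranged from −0.275 to 1.12 without one replicate. The genotype difference in H3K27me3 reversed for shared regions (−0.143) and ranged from −0.0315 to 0.574 without one replicate. That in H3K36me2 at 20°C reversed on X (2.14, and 2.62 for shared regions). Places, X for H3K36me2 and the 10000 strongest peaks were added after the data were seen.

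Where the genotypes were compared, replicate numbers were not taken to pair the libraries. Deviations of same-numbered libraries correlated at −0.0272, 0.0163 and 0.0280 for H3K27me3 at 20°C and 25°C and H3K36me2 at 20°C. With a replicate block, the genotype differences were 0.277 (exact p = 0.25) and −3.08 points (exact p = 0.5), and no call changed.

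Lists without depth or scaling limit all of these values, since a region without a peak is only known to be below the threshold, and 2 replicates per group allow few exact tests to fall under 0.05.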
